A study of Mus musculus with 6 samples.

Results

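Genes of cholesterol synthesis, fatty acid synthesis and the liver X receptor (LXR) response were read in follicular helper T (Tfh) cells lacking the ubiquitin ligases CBL and CBL-B. The group was fixed by gene symbol and holds 34 of the 47729 genes listed in the deposited table. It comprises 7 enzymes of the mevalonate arm, 10 enzymes from squalene to sterols, 7 genes of SREBP control, sterol transport and storage, 6 genes of the LXR response and 4 genes of fatty acid synthesis. RNA had been sequenced from splenic CD4+ TCR beta+ cells sorted for high PD-1 and high CXCR5, the surface phenotype of Tfh cells, from mice given NP-OVA (a hapten coupled to a protein carrier) into the peritoneum. There were 3 libraries labelled Cbl-/-Cbl-b-/- (double knockout, here the mutant) and 3 labelled as wild-type control, all given the same antigen, and the series asks how the ICOS-CBL signalling axis bears on Tfh development. The sources used here do not say how the alleles were made, how old the mice were or whether each library came from 1 mouse, and p-values therefore measure only library-to-library spread, which may be technical.

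Cholesterol is built from acetyl-CoA through mevalonate, squalene and lanosterol, and the genes of that route are switched on by SREBP2 when sterols in the endoplasmic reticulum are low. INSIG proteins hold the SREBP-SCAP complex in the endoplasmic reticulum when sterols are plentiful, whereas SREBP1 favours the genes of fatty acid synthesis. LXR receptors bind oxysterols and raise genes of cholesterol efflux and phospholipid remodelling, so that LXR and SREBP2 targets commonly move in opposite directions. Activated T cells need sterols and fatty acids to build membrane, and LXR signalling is known to limit their proliferation.

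Libraries held 23392254 to 38368885 reads assigned to genes. Cbl stood at 3262, 3856 and 2221 normalised counts in mutant replicates 1 to 3 and at 8614 to 12945 in the controls, whereas Cblb stood at 7459 to 8054 and at 6955 to 10037. The deleted parts are not stated, so counts over whole genes do not check the Cblb label. Sex-linked transcripts followed the groups: the Y-linked gene Ddx3y stood at 0, 2.46 and 7.16 normalised counts in the mutant and 2812 to 3721 in the controls, while Xist stood at 12769 to 18101 against 12.9 to 970. Sex and genotype therefore cannot be told apart for any value below. The T cell markers Cd3e, Cd3g, Cd4 and Trac and the Tfh markers Cxcr5, Pdcd1, Bcl6 and Icos were abundant in every library. The T cell list summed to 275987 to 308908 in the mutant and to 377335 to 412055 in the controls. Within it, Cd4 and Trac were below every control in all mutant libraries, Cd3e was above every control, and Cd3g overlapped. The Tfh list summed to 77653 to 109524 in the mutant and to 89281 to 100721 in the controls. The proliferation list (Mki67, Top2a, Mcm2, Mcm5, Pcna, Ccnb1 and Cdk1) summed to 43784, 25338 and 72089 in mutant replicates 1 to 3 and to 29394, 33739 and 38609 in control replicates 1 to 3. All 7 of its genes were lowest in replicate 2 and highest in replicate 3 among the mutant libraries. The regulatory T cell gene Foxp3 reached 5451 in mutant replicate 2 and ranged from 149.6 to 768 in the other libraries. Ikzf2, of the same list, was below every control in all mutant libraries (7951, 11115 and 12291 against 12353 to 17427). Il2ra, also of that list, overlapped between groups (404, 832 and 243 against 84.5 to 259). The list of these 3 genes summed to 8504.5, 17398 and 12830 in mutant replicates 1 to 3 and to 12915 to 17835 in the controls.

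The promoters of 4 genes are shown because values of the LXR genes had opposite signs, although Pltp alone passed the test, and the sterol genes share a regulator. Each line gives the 250 bases before the start of transcription from the RefSeq promoter table (build GRCm38.p6), 5′ to 3′ on the strand of the gene. Capitals mark matches, on either strand, to a direct repeat of GGTNA with 5 free bases between its copies, the type of element that LXR binds,, to a sterol response element (TCACNCCAC) or to the CCAAT box read by NF-Y, the partner of SREBP2; no match of one motif overlapped a match of another.
Pltp: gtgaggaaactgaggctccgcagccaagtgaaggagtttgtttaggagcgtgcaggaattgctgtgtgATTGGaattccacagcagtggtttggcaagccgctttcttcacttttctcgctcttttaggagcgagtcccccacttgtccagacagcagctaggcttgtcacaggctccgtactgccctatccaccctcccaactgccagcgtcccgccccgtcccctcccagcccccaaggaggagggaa
Abca1: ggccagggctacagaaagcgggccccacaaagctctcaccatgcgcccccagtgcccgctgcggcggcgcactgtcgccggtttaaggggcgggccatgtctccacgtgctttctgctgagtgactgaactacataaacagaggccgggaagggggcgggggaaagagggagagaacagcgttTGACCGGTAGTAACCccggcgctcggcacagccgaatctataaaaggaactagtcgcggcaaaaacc
Mylip: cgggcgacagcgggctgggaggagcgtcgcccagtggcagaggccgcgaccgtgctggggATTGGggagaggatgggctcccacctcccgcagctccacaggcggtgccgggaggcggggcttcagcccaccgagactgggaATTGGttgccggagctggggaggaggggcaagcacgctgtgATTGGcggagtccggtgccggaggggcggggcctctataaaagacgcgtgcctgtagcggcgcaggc
Hmgcs1: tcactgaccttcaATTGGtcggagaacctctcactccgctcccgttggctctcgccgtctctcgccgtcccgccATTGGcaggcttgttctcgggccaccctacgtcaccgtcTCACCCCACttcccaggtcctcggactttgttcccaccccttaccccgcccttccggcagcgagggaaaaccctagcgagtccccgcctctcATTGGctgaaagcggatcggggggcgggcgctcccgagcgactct
The Pltp window lies at chr2:164857709-164857958 (minus strand), that of Abca1 at chr4:53159896-53160145 (minus), that of Mylip at chr13:45389492-45389741 (plus) and that of Hmgcs1 at chr13:119690101-119690350 (plus). The GGTNA repeat of Abca1 begins 67 bases before the start, and the sterol response element of Hmgcs1 begins 137 bases before it. Of the 34 members, 27 have an entry in that table. In windows of 250 bases before and 50 after the start, the GGTNA repeat matched 3 of the 27 (Abca1, Fasn and Srebf1) and 0.818% of all 27025 genes with an entry. The sterol response element matched Hmgcs1 alone, against 1.44% of all genes. The CCAAT box matched 22 of the 27, Pltp, Mylip and Hmgcs1 among them, against 41.1% of all genes. These matches describe letters and are not evidence of binding.

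All 34 members passed the filter on low values (at least 10 normalised counts in at least 3 of the 6 libraries). In the comparison of mutant with control, 1 member rose, none fell and 33 did not pass (limma, Benjamini-Hochberg adjusted p below 0.05 over 13602 genes tested). Over all genes tested 2.93% passed, 1.85% as higher and 1.07% as lower, so 1 of 34 is near that background. The member that rose was Pltp. At an unadjusted p below 0.05 there were 9 members, against 17% of all genes tested. The other 8 were Abca1, Mylip, Sqle, Scd2, Cyp51, Fasn, Insig1 and Stard4. The median log2 fold change of the members was 0.04 and that of all genes tested was -0.00. The groups did not overlap for 11 of the 34 members, 4 higher and 7 lower in the mutant, against 23.6% of all genes tested. edgeR on the recovered reads passed Pltp alone, against 2.98% of all genes. DESeq2 on the same reads passed 4 members, Pltp, Abca1, Mylip and Sqle, against 8.06% of all genes it tested. In the authors' deposited table these 4 members passed, against 6.61%. Limma with library weights, which give noisier libraries less say, passed 5, the same 4 and Stard4, against 10.1%.

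**Figure D1:**
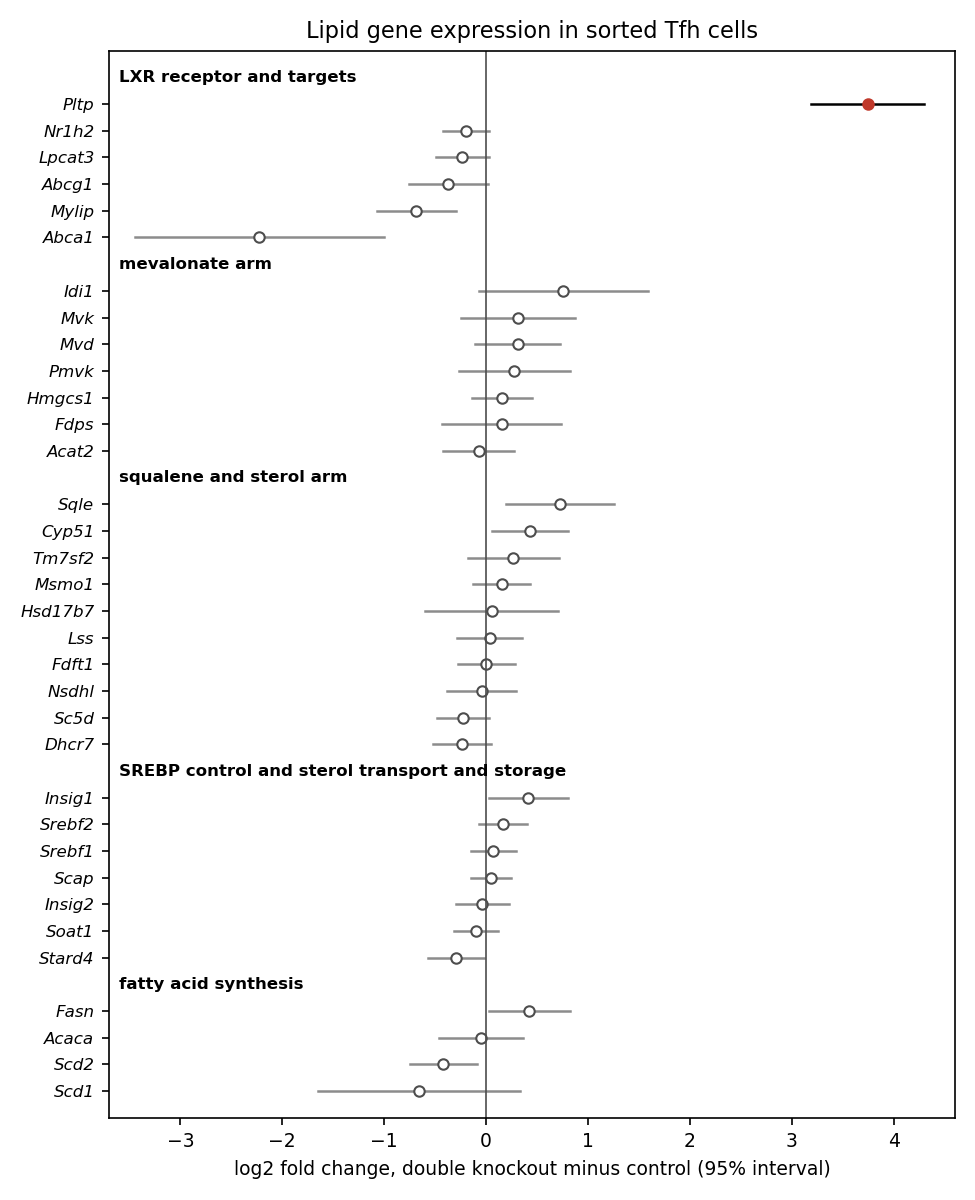
Log2 fold change (mutant minus control, on the log2(value + 1) scale) of each of the 34 members, ordered by role, with its 95% interval from limma; the filled point passed the test and open points did not. Pltp stands at 3.74, apart from all other members, and Abca1 has the lowest value, -2.22.

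The LXR response held the member that rose and the members with the largest values in the other direction. Pltp (ENSMUSG00000017754, chromosome 2) encodes the phospholipid transfer protein, a secreted protein that moves phospholipids between lipoproteins and is a known LXR target. It stood at 605, 558 and 531 normalised counts in mutant replicates 1 to 3 and at 30.8, 53.5 and 42.2 in control replicates 1 to 3. Every mutant library lay far above every control, and the spread within each group was small beside the gap. The means were 564 ± 37.4 and 42.2 ± 11.3 (SD, n = 3 each), a ratio of 13.4. The log2 fold change was 3.74 ± 0.24 (SE; limma adjusted p = 0.000783), and 3 of the 13602 genes tested had a smaller p. Leaving out any 1 library kept the call (3.54 to 3.93, largest limma adjusted p = 0.0122), as did all 11 other alternatives. Per kilobase of annotated exon, Pltp moved from the 15.7th percentile of tested genes in the controls to the 55.9th in the mutant.

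Pltp overlaps Ctsa, which encodes the lysosomal protease cathepsin A, tail to tail on opposite strands, with 495 shared exonic bases (GENCODE M21, GRCm38). The strand setting of the counting is not stated, so reads in the shared part cannot be assigned to either gene. Ctsa, named here for that overlap, also rose, from 6026 ± 417 to 10332 ± 929 (log2 difference 0.78 ± 0.11, limma adjusted p = 0.0129). Pltp came to 4.98% to 5.80% of the Ctsa value in the mutant libraries and to 0.498% to 0.962% in the controls. Both are values over whole genes, and the part of reads from the shared bases was not tested.

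Within 100 kb on either side of Pltp 13 other genes were tested, and Ctsa alone passed. The gelatinase gene Mmp9 had the next smallest p. It stood at 305, 440 and 38.5 in mutant replicates 1 to 3 and at 10.3 to 19.2 in the controls (log2 difference 3.46 ± 0.82, limma adjusted p = 0.0697). Its mutant libraries were far apart, although all lay above the controls. The nearest upstream neighbour, Pcif1, had 2878 ± 262 against 3031 ± 136 (-0.08 ± 0.10, limma adjusted p = 0.778), and Zfp335 had 2233 ± 144 against 1749 ± 116 (0.35 ± 0.10, limma adjusted p = 0.119).

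**Figure D2:**
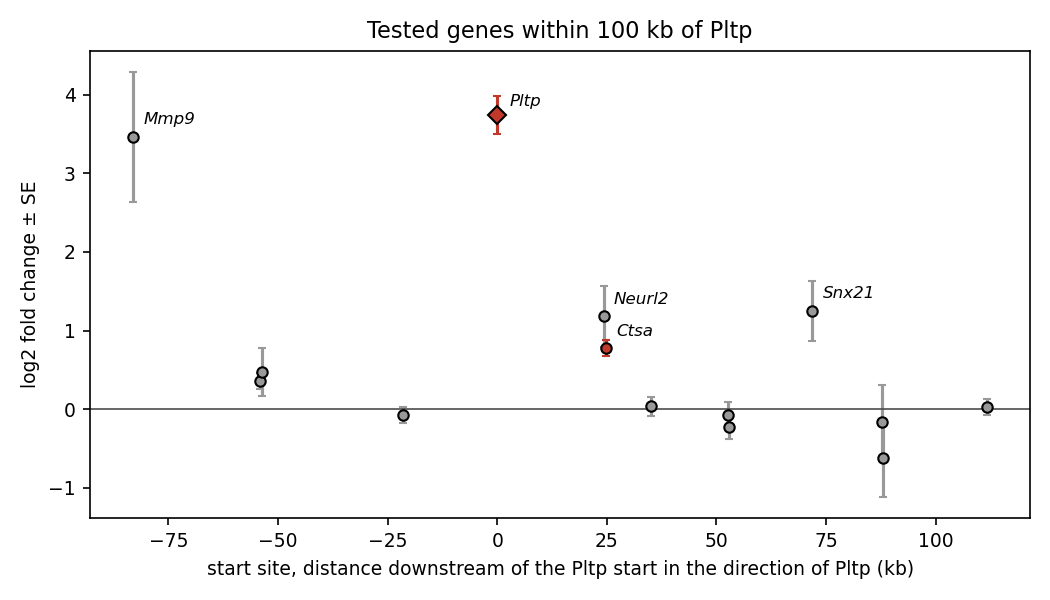
Log2 fold change ± SE of Pltp (diamond) and of the 13 other genes tested within 100 kb of it (circles), by the distance of each start site from the Pltp start, downstream in the direction of Pltp; filled red symbols passed the test. Pltp and Ctsa passed, while Mmp9 had a value of 3.46 with a wide error.

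Macrophages are a known source of Pltp, Abca1 and Apoe. The list of macrophage and dendritic cell markers (Adgre1, Csf1r, Lyz2, Cd68, Itgax, Apoe and C1qa) summed to 399 to 727 in the mutant and to 510 to 1612 in the controls, and none of its 7 genes was at 0 in any library. Without Apoe and Cd68, which made up most of that sum, the list came to 74.3 to 160 against 133 to 229. The defining receptor Adgre1 (8.05 to 10.7 against 12.3 to 26.7) was lower in every mutant library than in any control. The same held for Lyz2 (15.2 to 38.5 against 42.2 to 66.7). The receptor Csf1r (23.3 to 47.5 against 34.3 to 94.3) overlapped between groups, with its highest library in the controls. The lysosomal marker Cd68 stood at 173 to 546 against 88.2 to 117, with every mutant library above the controls. Itgax (6.26 to 14.7 against 1.84 to 9.59) and C1qa (14.3 to 48.3 against 27.6 to 37.9) overlapped between groups, each with its highest library in the mutant. The gamma-delta and NKT cell markers Trdc, Zbtb16 and Klrb1c summed to 6364 to 13261 in the mutant and 3042 to 3586 in the controls, with the first 2 of them above every control and Klrb1c below. The part of such cells in the Pltp values was not tested. In RNA from sorted populations, fewer cells that express a gene and less RNA per cell cannot be told apart.

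The other 5 genes of the LXR response all had lower values in the mutant, and in each the 3 mutant libraries lay below the 3 controls. Such a non-overlap toward lower values held for 11.3% of all genes tested. None of the 5 passed limma's test over all genes. Their signs held in all 17 alternatives.

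Abca1 (ENSMUSG00000015243, chromosome 4) encodes the transporter that loads cholesterol and phospholipid onto apolipoprotein A-I. It stood at 81.0, 93.4 and 30.4 in mutant replicates 1 to 3 and at 453, 370 and 146 in control replicates 1 to 3. Control replicate 3 was well below the other controls, and mutant replicate 3 was the lowest library of all. The log2 fold change was -2.22 ± 0.53 (limma adjusted p = 0.0703). DESeq2 passed it (adjusted p = 0.000142), as did the authors' deposited table (log2 fold change -1.44, adjusted p = 3.58e-05). Limma passed it with library weights (adjusted p = 0.00883) and when control replicate 3 was left out (adjusted p = 0.0488). Values ran from -2.72 to -1.73 over the fits that omit 1 library.

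Mylip (ENSMUSG00000038175, chromosome 13) encodes IDOL, an LXR-induced ubiquitin ligase that limits lipoprotein uptake. It stood at 754, 1083 and 714 in mutant replicates 1 to 3 and at 1414, 1356 and 1267 in control replicates 1 to 3. Mutant replicate 2 was nearest to the controls, and without it Mylip passed (log2 fold change -0.87, limma adjusted p = 0.0139). With all libraries the value was -0.69 ± 0.17 with a 95% interval of -1.07 to -0.30 (adjusted p = 0.075). DESeq2 (adjusted p = 0.0116), the authors' deposited table (adjusted p = 0.0136) and library weights (adjusted p = 0.00974) passed it.

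Abcg1, which encodes the transporter that passes cholesterol to high-density lipoprotein, had 2601 ± 447 against 3358 ± 602 (log2 difference -0.37 ± 0.17, limma adjusted p = 0.317). Its highest mutant library, 2962, was just under its lowest control, 2971. Lpcat3, the acyltransferase that puts polyunsaturated chains into phospholipids, had 952 ± 27.2 against 1122 ± 104 (-0.23 ± 0.11, limma adjusted p = 0.35). Nr1h2, which encodes LXR beta, had 2560 ± 202 against 2930 ± 128 (-0.20 ± 0.10, limma adjusted p = 0.365). For these 3 genes the intervals reached from -0.76 at the lowest to 0.03 at the highest.

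**Figure D3:**
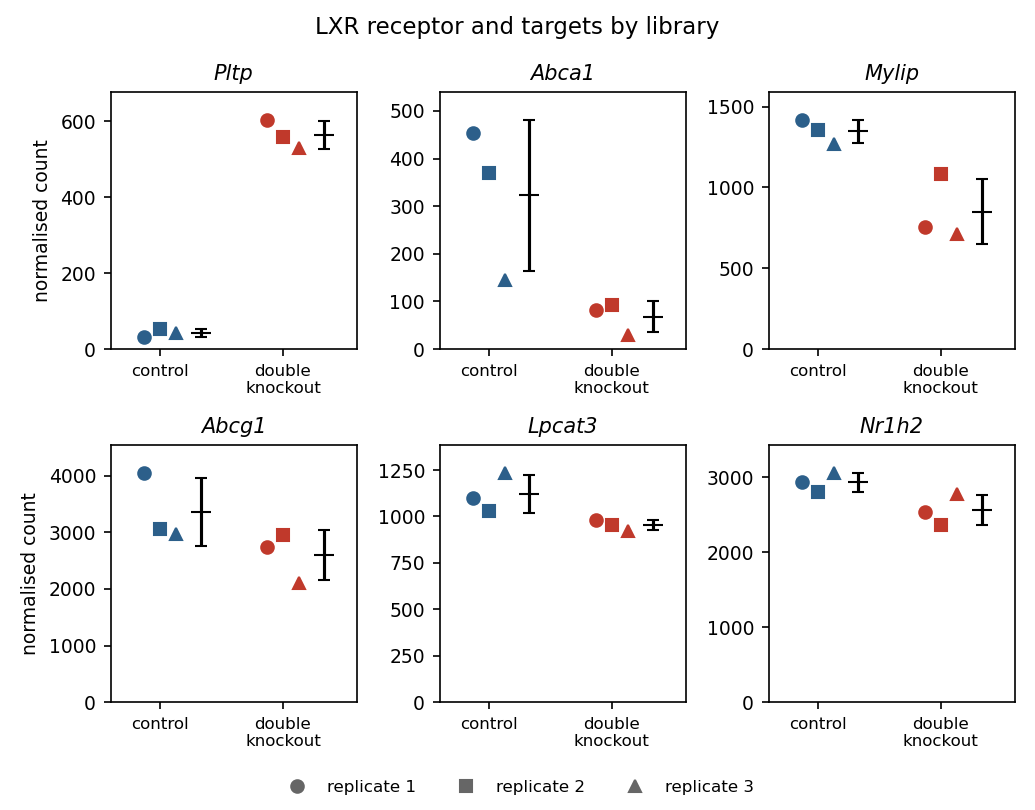
Normalised counts of the 6 genes of the LXR response in each library (circle, replicate 1; square, replicate 2; triangle, replicate 3), with the mean ± SD of 3 libraries beside them. Pltp lies at 531 to 605 in the mutant and 30.8 to 53.5 in the controls, whereas the other 5 genes lie lower in every mutant library than in any control.

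The relative level of close relatives was compared per kilobase of exon within each library. Nr1h2 was 39.6 to 46.4 times as high as Nr1h3, the gene of LXR alpha, in the mutant and 85.0 to 143 times in the controls. Nr1h3 itself was near the filter on low values, at 48.2, 39.3 and 44.7 against 15.4, 24.7 and 22.0 (log2 difference 1.08 ± 0.34, limma adjusted p = 0.148), so LXR beta was the main LXR transcript in every library. Abcg1 was 45.0 to 98.1 times as high as Abca1 in the mutant and 11.7 to 28.9 times in the controls. Nr1h3 and, below, Soat2 were picked as relatives of members after their values had been seen.

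The 17 enzymes of sterol synthesis showed no called change in either direction. Their median log2 fold change was 0.15, beside -0.00 for all genes tested, with 13 positive and 4 negative values. That median ran from 0.04 without control replicate 1 to 0.24 without control replicate 2, and was 0.07 without mutant replicate 3. Non-overlapping groups were seen for 3 enzymes toward higher values (Sqle, Cyp51 and Mvd, against 12.3% of all genes) and for Sc5d toward lower values.

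In the mevalonate arm, Hmgcs1 makes HMG-CoA and is a standard reporter of SREBP2. It had 1303, 1274 and 1390 in the mutant and 1014, 1331 and 1242 in the controls, and its groups overlapped. The log2 fold change was 0.15 with a 95% interval of -0.14 to 0.45 (limma adjusted p = 0.617). The sterol response element and the CCAAT boxes in its promoter are those shown above. Mvd, the decarboxylase that closes the mevalonate steps, had 222, 240.1 and 285 against 191, 188 and 221. Its lowest mutant library barely cleared the highest control (0.31 ± 0.18, limma adjusted p = 0.441).

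Idi1, the isomerase that makes the second 5-carbon building block, had the highest value of this arm, 0.76 ± 0.36 (limma adjusted p = 0.342). It was low in all libraries, at 84.0, 62.3 and 126 against 63.6, 35.6 and 58.8, and its groups overlapped. The remaining members of this arm were the thiolase Acat2 (-0.07 ± 0.15), the kinases Mvk (0.31 ± 0.24) and Pmvk (0.28 ± 0.24) and the prenyl synthase Fdps (0.15 ± 0.25), with limma adjusted p between 0.582 and 0.869. Their groups all overlapped. Per kilobase of exon the control level of the arm ran from the 14.7th percentile of tested genes for Idi1 to the 74.9th for Pmvk.

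In the arm from squalene to cholesterol, Sqle (ENSMUSG00000022351, chromosome 15) encodes squalene epoxidase, a rate-limiting enzyme of the later steps. It stood at 604, 455 and 827 in mutant replicates 1 to 3 and at 321, 360 and 433 in control replicates 1 to 3. All mutant libraries were above all controls, with replicate 2 nearest to them. The log2 fold change was 0.72 ± 0.23 with a 95% interval of 0.19 to 1.26 (limma adjusted p = 0.153). DESeq2 (adjusted p = 0.0377), the authors' deposited table (adjusted p = 0.0347) and library weights (adjusted p = 0.0241) passed it as higher. Without mutant replicate 3 the value was 0.51, and without replicate 2 it was 0.94 (limma adjusted p = 0.276 and 0.0536).

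Cyp51, the lanosterol demethylase, stood at 1393, 1486 and 1925 against 995, 1329 and 1225 (log2 difference 0.43 ± 0.16, limma adjusted p = 0.224). Its groups were separate by a small gap. Cyp51 shares 166 exonic bases with Akap9 on the other strand, and Akap9 had a value of 0.54 (limma adjusted p = 0.226). The other enzymes stayed within 0.27 of 0 on the log2 scale. They were Fdft1 (squalene synthase, 0.00 ± 0.12), Lss (lanosterol synthase, 0.03 ± 0.14), Tm7sf2 (a sterol reductase, 0.27 ± 0.19), Msmo1 (a methylsterol oxidase, 0.15 ± 0.12), Nsdhl (a sterol dehydrogenase, -0.04 ± 0.15) and Hsd17b7 (a sterol ketoreductase, 0.05 ± 0.28).

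The last steps went the other way in value. Dhcr7, which makes cholesterol from 7-dehydrocholesterol, had 1953 ± 142 against 2309 ± 308 (log2 difference -0.24 ± 0.12, limma adjusted p = 0.383). Sc5d, the desaturase just before it, had 896, 1045 and 969 against 1128, 1199 and 1080 (-0.23 ± 0.11, limma adjusted p = 0.354). Its mutant libraries all lay below the controls. Sc5d lies on chromosome 9, 1.88 Mb from Cbl, and the only member on a sex chromosome is Nsdhl, on X. A part of linked or sex-linked differences in these values was not tested.

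The summed level of the sterol enzymes followed the same order among the mutant libraries as that of the proliferation list, while single enzymes differed in their order. Among the 17 enzymes, 11 had their highest value of all 6 libraries in mutant replicate 3, which was the highest library for 19.1% of all genes tested. Likewise 11 had the lowest of the 3 mutant values in replicate 2, against 34.5% of all genes tested. The 17 enzymes summed to 11982, 11007 and 13451 in mutant replicates 1 to 3 and to 10428, 11639 and 11890 in control replicates 1 to 3. Mutant replicates 1 and 3 lay above every control and replicate 2 lay within the control range. The part of proliferation in the sterol values was not tested.

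**Figure D4:**
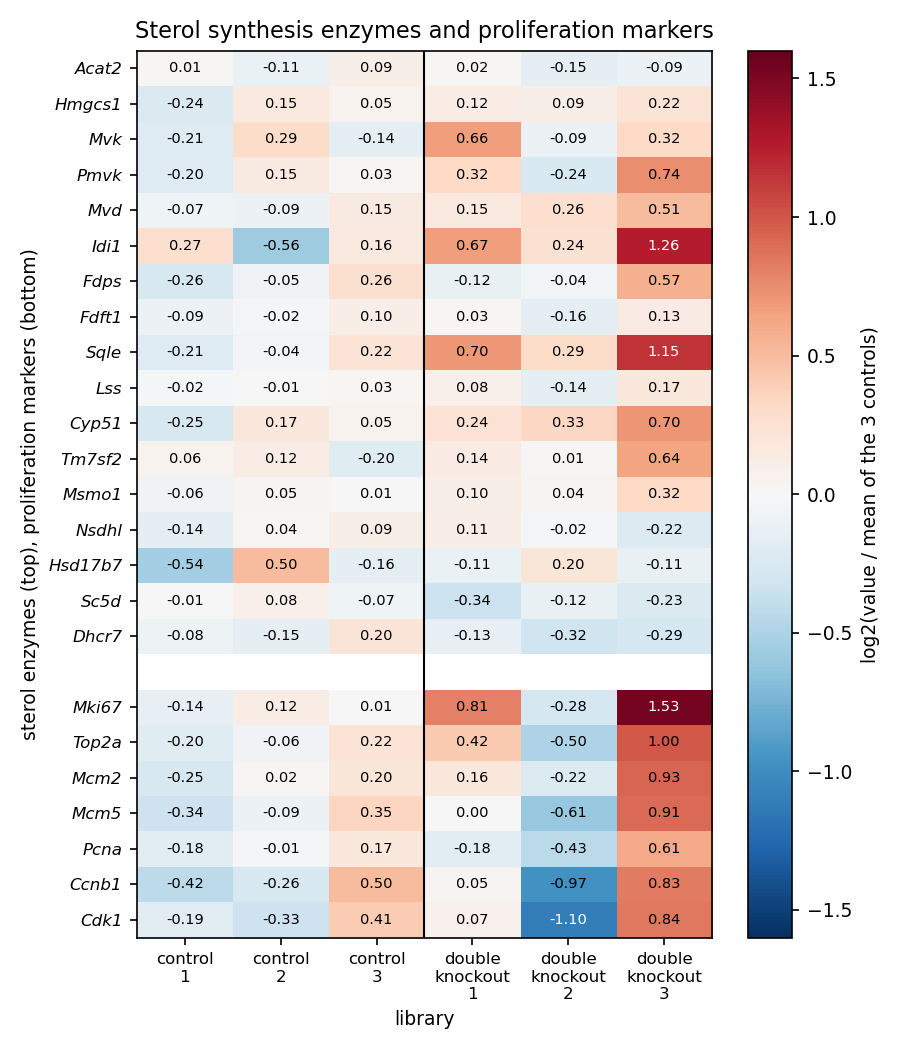
Log2 of each value over the mean of the 3 controls, by library (columns), for the 17 sterol synthesis enzymes (upper block) and 7 proliferation markers (lower block); red is above and blue below the control mean. Mutant replicate 3 holds the highest value of all 6 libraries for 11 of the 17 enzymes and for all 7 markers.

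The regulators of SREBP showed small values. Srebf2, the gene of SREBP2, had 10280, 9250 and 10368 in the mutant and 8126, 9531 and 9065 in the controls (log2 difference 0.16 ± 0.10, limma adjusted p = 0.479). Srebf1 had 3678 ± 283 against 3490 ± 86.8 (0.07 ± 0.09) and the escort gene Scap 2770 ± 54.2 against 2674 ± 52.8 (0.05 ± 0.08). The 95% intervals of these 3 genes lay between -0.14 and 0.40. Per kilobase of exon, Srebf2 was 1.88 to 2.19 times as high as Srebf1 in all 6 libraries.

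Of the INSIG genes, Insig1 is itself an SREBP target. Insig1 stood at 900, 768 and 1132 in the mutant and 641, 794 and 647 in the controls, with replicate 2 inside the control range (log2 difference 0.42 ± 0.17, limma adjusted p = 0.266). Insig2 had 853 ± 55.2 against 875 ± 41.6 (-0.04 ± 0.11). The ratio of Insig1 to Insig2 per kilobase was 1.24, 1.04 and 1.39 in mutant replicates 1 to 3 and 0.793, 1.08 and 0.817 in control replicates 1 to 3.

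Stard4, a carrier of cholesterol between membranes and a known SREBP2 target, had 1994 ± 287 against 2427 ± 88.7 (log2 difference -0.29 ± 0.12, limma adjusted p = 0.267). Mutant replicate 3 reached the control range, and library weights passed Stard4 as lower (adjusted p = 0.0438). Its sign was opposite to those of Sqle, Cyp51 and Insig1, which are targets of the same factor. Soat1, which esterifies cholesterol for storage, had 2815 ± 84.1 against 3016 ± 198 (-0.10 ± 0.09, limma adjusted p = 0.672). It was 48.0 to 88.6 times as high as Soat2 per kilobase.

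The genes of fatty acid synthesis did not share a direction. Fasn, the fatty acid synthase, stood at 8207, 9116 and 11702 in the mutant and 7343, 8422 and 5850 in the controls (log2 difference 0.42 ± 0.17, limma adjusted p = 0.262). A single mutant library lay within the control range. Acaca, which makes malonyl-CoA for it, had 1128 ± 184 against 1171 ± 230 (-0.05 ± 0.18, 95% interval -0.46 to 0.36).

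Scd2, a stearoyl-CoA desaturase, was the most abundant member per kilobase, at the 95.7th percentile of tested genes in the controls. It stood at 11466, 7895 and 10394 in the mutant and 13716, 12941 and 12670 in the controls. All mutant libraries were below the controls (-0.42 ± 0.14, limma adjusted p = 0.179). Its paralog Scd1 had 21.2 ± 7.73 against 33.2 ± 8.87, which rests on 12 to 44 reads per library (-0.66 ± 0.43, limma adjusted p = 0.5). Scd1 and Scd2 are close paralogs, and how reads matching both were counted is not stated.

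A wider set of 85 pathway genes was read in the same fit, and 70 of them passed the filter on low values. Of these, 68 did not pass the test, a share near that of all genes, of which 2.93% passed, and the median log2 fold change was -0.04.

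Lipa fell. It encodes the lysosomal acid lipase that frees cholesterol from esters taken up with lipoproteins. Its level stood at 4500, 5612 and 4561 in the mutant and 9591, 9258 and 7532 in the controls. No library of one group reached the other (log2 difference -0.85 ± 0.13, limma adjusted p = 0.0195). The call ended without mutant replicate 1 (adjusted p = 0.108), control replicate 1 (adjusted p = 0.0975) and control replicate 2 (adjusted p = 0.0862). Over all 6 fits that omit 1 library, Lipa values ran from -0.95 to -0.78.

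Among 8 further sterol synthesis genes none passed. None of the 9 tested LXR partners and targets outside the members passed. Rxra, which encodes an obligate partner of LXR, had 376, 582 and 381 against 718, 651 and 779.7 (log2 difference -0.71 ± 0.19, limma adjusted p = 0.101), and DESeq2 passed it as lower (adjusted p = 0.0263). Rxra also passed in the authors' deposited table, at an adjusted p of 0.0286, and in limma's fits with library weights (0.0185) or without mutant replicate 2 (0.0229, both adjusted p). Apoe, an LXR target that encodes a lipoprotein ligand, stood at 304, 66.4 and 73.4 against 1290, 1371 and 256 (-2.74 ± 0.76, limma adjusted p = 0.105). DESeq2 passed Apoe as lower (adjusted p = 0.0442), as did limma with library weights (adjusted p = 0.0364) and without control replicate 3 (adjusted p = 0.0484). These were its only passes, in 2 of 11 alternatives with all libraries and 1 of 6 that omit 1. The authors' deposited table did not pass Apoe. Values ran from -2.78 to -0.73 with all libraries and from -3.53 to -2.32 where 1 was omitted. Control replicate 3 lay within the mutant range for Apoe, and it was also the lowest control for Abca1.

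None of the 17 tested genes of fatty acid synthesis, elongation and desaturation outside the members passed. The elongase Elovl6 had 761 ± 161 against 524 ± 10.1 (0.52 ± 0.16 on the log2 scale, limma adjusted p = 0.148) and the reductase Tecr 4183 ± 181 against 5477 ± 829 (-0.38 ± 0.12; limma adjusted p = 0.152). None of 8 tested genes of fatty acid oxidation passed, and 6 of them had negative values. Cpt1a, the gate of mitochondrial import, had 5098 ± 809 against 7851 ± 1516 (-0.62 ± 0.17, limma adjusted p = 0.103), and Acadl, an acyl-CoA dehydrogenase, had 2323 ± 197 against 3030 ± 168 (-0.38 ± 0.10, limma adjusted p = 0.0952). DESeq2 passed Cpt1a (adjusted p = 0.016) and Acadl (adjusted p = 0.0303) as lower. The authors' deposited table passed Cpt1a (adjusted p = 0.0187) and not Acadl (adjusted p = 0.0694).

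**Figure D5:**
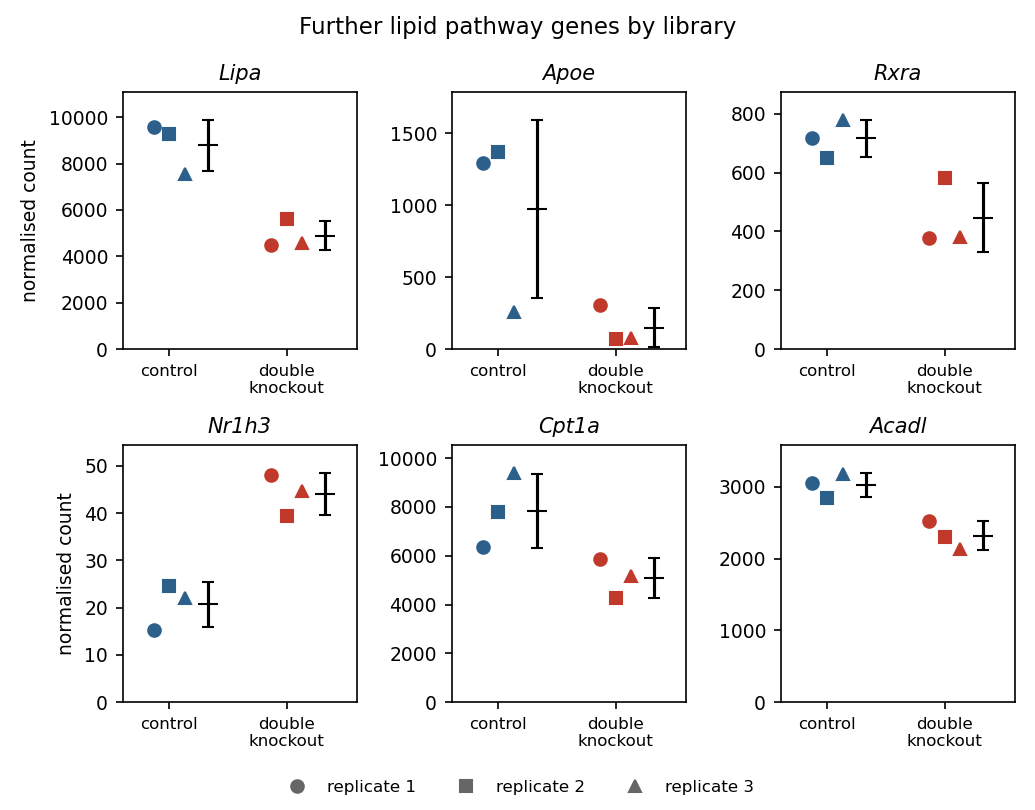
Normalised counts of 6 lipid pathway genes outside the members in each library (circle, replicate 1; square, replicate 2; triangle, replicate 3), with the mean ± SD of 3 libraries beside them. Lipa is lower in every mutant library than in any control, while for Apoe control replicate 3 lies at 256, beside 304 in mutant replicate 1.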

How the data were processed

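The 6 libraries were grouped by their titles. Per the file headers, the authors deposited a signal of normalised reads for each gene; the values themselves show that each column was scaled by its own constant. Tools listed in the submitters' processing notes, without roles, are featureCounts 1.4.6, STAR 2.5.1b and DESeq2 1.12.3, with the build GRCm38. All values (100%) came within 0.001 of a whole number of reads when divided by their column's lowest value above 0, so reads were recovered for edgeR 4.0.16, which called 405 genes against 398 with limma, and DESeq2 1.42.0. The main test was limma-trend 3.58.1 (R 4.3.3) on log2(value + 1), two-sided, over 13602 genes with at least 10 in 3 or more libraries, and it was tested on simulated data. Fold changes on that scale understate the change of low genes. The deposited table also holds the authors' log2 fold changes, a test score and p-values, used as an alternative. Those fold changes were smaller in size than limma's for Pltp (3.23 against 3.74), Abca1 (-1.44 against -2.22) and Scd1 (-0.36 against -0.66). Ranges over alternatives with all libraries include them. Replicates differed by more than sampling noise (10.04 to 84.3 for chi-square over its degrees of freedom), and precision covers libraries, not mice.

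Members and lists were chosen with earlier results of these data known. Genes outside the members are named where they passed, or as the 2 of smallest p of a list where none did, except for some that are not reported here; Ctsa, Mmp9, Pcif1, Zfp335, Akap9, Nr1h3 and Soat2 were named after their values were seen. Positions and exon lengths come from GENCODE M21 (GRCm38), matched for all 34 members and 13557 genes tested. Other steps used Python 3.11.15 with pandas 2.3.3, numpy 2.4.6 and matplotlib 3.10.9.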

Additional observations from a re-analysis of the deposited data

How the results depend on the processing

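Pltp kept its call in all 17 alternatives, and 28 of the 34 members kept their sign in all of them; Acaca, Fdft1, Fdps, Hsd17b7, Lss and Nsdhl, none of which passed in any, turned in at least 1. DESeq2 called 4 members, 7 further pathway genes and 1096 of all genes, the authors' deposited comparison called 4, 5 and 993, and library weights 5, 10 and 1368; the cause was not tested. With the replicate number as a block, 2 members (Abca1 joined, adjusted p = 0.0225) and 265 genes passed. Same-numbered libraries correlated weakly in their deviations from the group means (0.07, 0.05 and 0.09, all under 0.1). Each nevertheless correlated best with its own number, with at most 0.03 for other numbers. The main test did not pair them because the correlations were weak, and a pairing was not excluded. With each library left out in turn, members called ranged from 1 to 2, further pathway genes from 0 to 3, the member median from -0.01 to 0.08 and all genes called from 58 (without control replicate 1) to 498 (without mutant replicate 2), with 69 without mutant replicate 1, 117 without control replicate 2 and 232 without control replicate 3; these fits have fewer samples. Depth limits Scd1, Idi1, Abca1 in the mutant (79, 114 and 34 reads in replicates 1 to 3) and Pltp in the controls most. These values rest on few reads.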
